A study of Mus musculus with 4 samples.

Results

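The 4 GLORI libraries of this series were regrouped into 2 pairs, chosen by the sites they list in 8 marker genes of astrocytes and microglia. Side 1 holds the libraries labelled astrocyte 1 and microglia 2, which list sites in the astrocyte genes Slc1a2, Aqp4, Slc4a4 and Fgfr3. Side 2 holds the libraries labelled astrocyte 2 and microglia 1, which list sites in the microglia genes Cx3cr1, P2ry12, Entpd1 and Csf1r. All 4 libraries of the series were used, 2 on each side. The grouping runs against the labels of both replicate 2 libraries, so a library is named throughout by its label and no library was relabelled. Because the site lists themselves chose the sides, every comparison of the sides is a description without a test.

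All libraries came from cortical cells of mice with the APOBEC1-YTH genotype, a fusion of a cytidine deaminase and an m6A-binding domain. Treatment with tamoxifen at 20 mg/kg began at the age of 10 weeks, was given every 24 hours for 5 days, and tissue was collected after another 7 days. Genotype and treatment were the same in all groups. The labels name no untreated or transgene-free animals, no sex, no driver of the transgene and no number of animals per library. Cells had been sorted by flow cytometry with anti-ACSA2 for astrocytes and anti-Cd11b for microglia. The labels do not say that same-numbered libraries share an animal, and spread between libraries may be technical.

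N6-methyladenosine (m6A) is placed on messenger RNA by a nuclear methyltransferase complex, mostly within a short motif centred on the sequence AC, and bears on splicing, export, translation and decay of the transcript. GLORI deaminates unmethylated adenosine, which is then read as G, so an adenosine still read as A is counted as methylated. The level of a site is the percent of reads with A. A site can be listed only in a transcript that was present and read, so a list of sites carries both expression and methylation. Fewer reads of a transcript, fewer cells of a type and less methylation cannot be told apart in such a list. Every site had the 3-mer GAC or AAC, in which the middle A is the measured base.

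Sites in named genes numbered 4790 in the library labelled astrocyte 1 and 3782 in microglia 2, against 2348 in astrocyte 2 and 1066 in microglia 1. The libraries of side 1 were therefore the larger ones, and listed 57.0% and 47.2% of the 5526 genes found in any library, against 31.1% and 17.0% for side 2. Median levels were 66.7% and 58.9% on side 1, and 80% and 100% on side 2. Sites in predicted Gm and Rik genes made up 7.22% and 6.21% on side 1, 7.71% in astrocyte 2 and 21.6% in microglia 1, which stood apart in this share. Read depth is unknown for every library. The part of library size in the counts below was not tested.

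The 8 genes that chose the sides are given first, as a description. For Slc1a2, which encodes the glutamate transporter GLT-1, astrocyte 1 listed 14 sites and microglia 2 listed 13, and 6 bases were listed in both. Common bases were fewer in the other genes of this side. In Aqp4, a water channel found at astrocyte endfeet, there were 2 among 6 and 5 sites. Fgfr3, a fibroblast growth factor receptor, had 1 among 5 and 3, listed at 33.3% and 16.7%. Slc4a4, a sodium bicarbonate cotransporter, had 5 sites in each library and no common base. No site in these 4 genes was listed in either library of side 2.

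Over Slc1a2 the levels ran from 12.9% to 50% in astrocyte 1, with a median of 21.3%, and from 11.8% to 50% in microglia 2, with a median of 18.1%. Both libraries thus placed this transcript at the low end of their own range. At the common base at position 102586413 of chromosome 2 (plus strand, mm39, 3-mer GAC) the levels were 17.7% in astrocyte 1 and 14.1% in microglia 2. At 102612407 (AAC) they were 13.1% and 16.4%, and at 102615449 (AAC) 15.4% and 15.9%. At 102619754 (AAC) they were 24.4% and 27.7%, and at 102620681 (GAC) 50% in both. The last common base, at 102617962 (AAC), stood at 32.6% in astrocyte 1 and 11.8% in microglia 2. The levels of 5 of the 6 bases thus differed by less than 4 points between these libraries, and that of the last by over 20.

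On side 2, Cx3cr1, the fractalkine receptor of microglia, was listed at 2 sites by astrocyte 2 and at 7 by microglia 1, with 1 base in common. That base, at position 119879644 of chromosome 9 (minus strand, AAC), stood at 22.5% in astrocyte 2 and 53.8% in microglia 1. P2ry12, a purine receptor of surveying microglia, had 3 and 6 sites, and its common base at position 59124851 of chromosome 3 (minus strand, GAC) stood at 16.7% and 29.0%. Both common bases were higher in the library labelled microglia 1. Csf1r, the receptor that sustains microglia, had 1 and 4 sites, with a common base at 38.2% in astrocyte 2 and 35.6% in microglia 1. Entpd1, an ectonucleotidase that breaks down extracellular ATP, had 3 and 4 sites and no common base. Neither library of side 1 listed a site in these 4 genes.

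Of the genes behind the sorting antibodies, Atp1b2, the sodium pump subunit recognised by anti-ACSA2, had 1 site in astrocyte 1 at 11.8% and 2 in microglia 2 at 13.2% and 36.4%. Itgam, which encodes Cd11b, had 1 site, in astrocyte 2, at 27.8%, and none in microglia 1. The sites of each sort gene thus lay on the side of its own cell type and, in the replicate 2 libraries, against the labels. For Itgam this rests on 1 site in 1 library.

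Over all genes, 868 were listed in both libraries of side 1 and in neither of side 2, which is 15.7% of the 5526 genes with a site in any library. The reverse held for 104 genes, or 1.88%. Without the markers that chose the sides the counts were 864 and 100. Grouped by label, 226 genes (4.09%) were listed in both libraries labelled astrocyte and neither labelled microglia, and 48 (0.869%) showed the reverse. Side 2 and the label microglia each had 325 genes common to their 2 libraries. Of these, 32% were absent from the opposite pair on side 2 and 14.8% under the label. Side 1 had 1386 common genes, of which 62.6% were absent from side 2, against 32.8% of the 688 genes common to the libraries labelled astrocyte.

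These counts hang on requiring both libraries of a pair, and 1 library moves them. Genes of side 1 alone numbered 1850 without astrocyte 1 and 2213 without microglia 2. Genes of side 2 alone numbered 165 without astrocyte 1, 420 without astrocyte 2 and 835 without microglia 1. In the replicate 1 libraries, where label and side coincide, 2709 genes were listed in astrocyte 1 and not in microglia 1, and 497 in the reverse direction. In the replicate 2 libraries, which are in doubt, 2015 genes were listed in microglia 2 and not in astrocyte 2, and 1122 in the reverse direction.

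Counted by base, 384 sites (3.62% of the 10598 sites in named genes) were listed in both libraries of side 1 and neither of side 2. They lay in 347 genes. Side 2 had 43 such sites (0.406%) in 40 genes. By label the counts were 69 for astrocyte (0.651%) and 42 for microglia (0.396%), so the count of side 2 was close to that of the label microglia at the level of single bases. Without astrocyte 1 or without microglia 2 the side 1 count was 3406 or 4329. For side 2 it was 70 without astrocyte 1, 677 without astrocyte 2 and 2010 without microglia 1. Most genes that belonged to 1 side had no base in common between its libraries: 275 of 868 genes (31.7%) on side 1 had at least 1, and 30 of 104 (28.8%) on side 2.

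**Figure D1:**
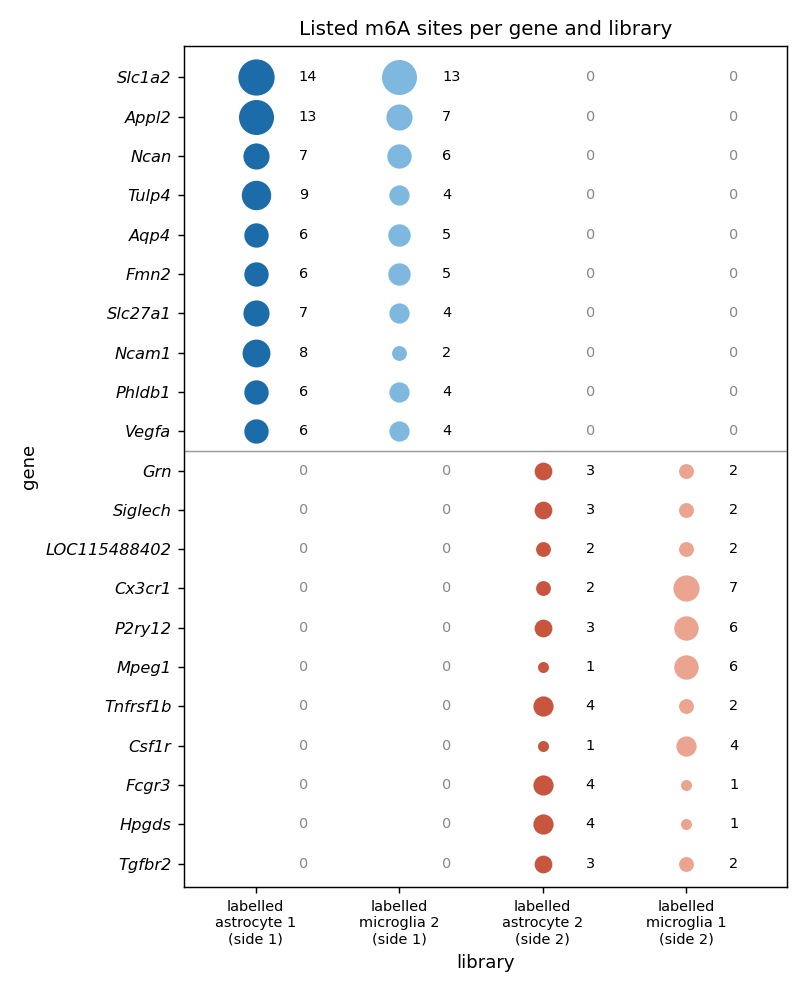
Number of listed m6A sites (printed beside each circle, whose area scales with it) for each gene (rows) in each library (columns). Above the line are 10 of the 12 genes with the most bases common to both libraries of side 1 and no site on side 2, and below it 11 of the 12 genes of the reverse; Slc1a2 has 14 and 13 sites on side 1, and the lower genes have 1 to 7 per library.

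The genes with most common bases on side 1 after Slc1a2 included cell surface and matrix proteins of the nervous system. Ncan and Bcan, proteoglycans of brain matrix, had 7 and 6 sites and 5 and 3 sites, each with 2 bases in common. Those of Ncan stood at 42.9% and 33.3% in astrocyte 1 and at 100% and 35.7% in microglia 2. Those of Bcan stood at 16.9% and 19.6% in astrocyte 1 and at 13.8% and 10.4% in microglia 2. Ncam1, a neural adhesion molecule, had 8 and 2 sites, with 57.1% and 33.3% at 1 common base and 100% and 52.9% at the other.

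A transporter and a growth factor followed. Slc27a1, a fatty acid transport protein, had 7 sites in astrocyte 1 but 4 in microglia 2, and its 2 common bases stood at 68.8% and 50% in astrocyte 1 against 16.2% and 22.2% in microglia 2. Vegfa, the vascular endothelial growth factor, had 6 and 4 sites, with common bases at 23.3% and 15.4% in astrocyte 1 and at 18.3% and 13.3% in microglia 2. Levels were thus close in Vegfa and far apart in Slc27a1, between the same 2 libraries.

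Others in this set were an adaptor, regulators of actin and less studied genes. Appl2, an endosomal adaptor, had 13 and 7 sites, with both common bases near the lower limit, at 15.6% and 15.6% in astrocyte 1 and at 13.6% and 13.8% in microglia 2. Fmn2, a formin that nucleates actin, had 6 and 5 sites and common bases at 45.5% and 46.2%, and at 100% in both libraries. Tulp4 had 9 and 4 sites, with 1 common base at 100% in both libraries. Its other common base stood at 90% in astrocyte 1 and 33.3% in microglia 2. Phldb1 had 6 and 4 sites. The common bases of Phldb1 stood at 19.4% and 28%, and at 62.5% in both libraries.

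On side 2, the leading genes were mostly of immune cells. Grn, which encodes the lysosomal protein progranulin, had 3 sites in astrocyte 2 and 2 in microglia 1. It had 2 common bases, at 33.3% and 24.3% in astrocyte 2 and at 30% and 72.7% in microglia 1, which lay 9 nucleotides apart at positions 102327313 and 102327322 of chromosome 11 (plus strand). Siglech, a sialic acid-binding lectin of microglia, had 3 and 2 sites, with common bases at 18.2% and 39.3% in astrocyte 2 and at 50% and 44.4% in microglia 1. In each of these genes 1 of the common bases was close in level between the libraries and the other was not. LOC115488402, an unnamed locus, had 2 and 2 sites at levels of 10.8% to 14.7%.

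The rest of this group encoded receptors, an enzyme and a pore-forming protein. Tnfrsf1b, the tumour necrosis factor receptor TNFR2, had 4 sites in astrocyte 2 from 86.7% to 100% and 2 in microglia 1, both at 100%. Fcgr3, an Fc receptor, had 4 and 1 sites with a common base at 41.1% and 45%. Tgfbr2, the type II receptor for transforming growth factor beta, had 3 and 2 sites with a common base at 64.7% and 80%. Mpeg1, which encodes a pore-forming protein of macrophages, had 1 and 6 sites with a common base at 50% in both, and Hpgds, a prostaglandin D synthase, had 4 and 1 with a common base at 60% and 50%.

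Across the sites listed in both libraries of a side and neither of the other, levels varied widely between these 2 libraries. Over the 384 sites of side 1 the median was 57.1% in astrocyte 1 against 50% in microglia 2, with a median absolute difference of 13.8 points. Over the 43 sites of side 2 the median was 45.8% in astrocyte 2 against 53.8% in microglia 1, with a median absolute difference of 8.89 points. The 2 libraries stood within 20 points of each other at 252 sites of side 1 (65.6%) and 35 of side 2 (81.4%). Sites at 100% made up 20.1% in astrocyte 1 and 12.5% in microglia 2, against 27.3% and 15.3% of all their sites in named genes. For side 2 they made up 20.9% in astrocyte 2 and 13.95% in microglia 1, against 37.9% and 60.3%.

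**Figure D2:**
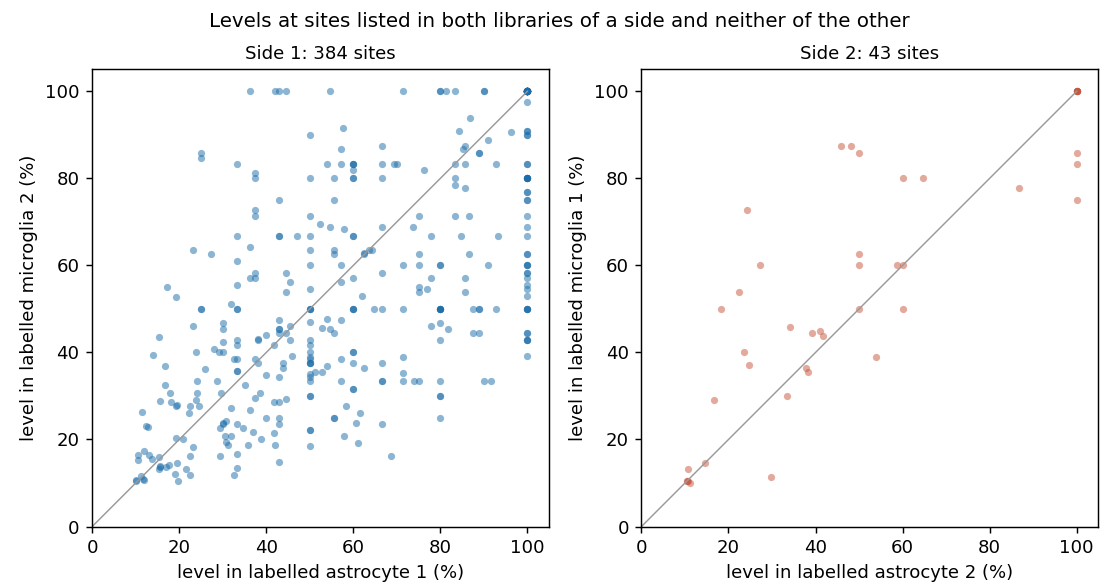
Level (percent of reads with A) in one library of a side against the level in the other, for sites listed in both libraries of the side and neither of the other; each point is a site and the line marks equal levels. The 384 sites of side 1 lie a median of 13.8 points apart between libraries and the 43 sites of side 2 a median of 8.89 points.

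Sequence and kind of gene were set beside the whole lists. GAC made up 73.7% of the sites of side 1 and 81.4% of those of side 2, against 56.8% to 69.4% of all sites in named genes of the 4 libraries and 55.4% of the 83 sites listed in all 4. The measured A was in lower case, as repeats are often masked, in 2.86% of the sites of side 1 (11 sites), 13.95% of those of side 2 (6 sites) and 12.05% of those in all 4. Over all sites in named genes this share was 5.11% in astrocyte 1, 4.15% in microglia 2, 5.88% in astrocyte 2 and 11.5% in microglia 1, so the share of side 2 was near that of microglia 1. Of the sites of side 1, 357 (93.0%) lay in protein-coding genes, against 90.5% of all sites in named genes of astrocyte 1 and 91.4% of microglia 2. On side 2, 34 (79.1%) lay in protein-coding genes, between the 89.3% of astrocyte 2 and the 73.5% of microglia 1, and 4 lay in small nucleolar and 2 in small nuclear RNAs. Of the 83 sites in all 4 libraries 53 (63.9%) were in protein-coding genes, 19 in long non-coding and 5 in small nucleolar RNA genes.

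Astrocyte functions were followed in gene lists, some of which also hold markers that chose the sides, as said beside their counts. Shares of a list are taken over its members with a site in any library, as the shares over all 5526 genes are. Of 34 further astrocyte markers, 27 were listed in astrocyte 1, 23 in microglia 2, 1 in astrocyte 2 and 0 in microglia 1. Both libraries of side 1 and neither of side 2 listed 19 of the 30 with a site in any library (63.3%), against 15.7% of all listed genes. Gja1, the gap junction protein connexin 43, had 5 sites in astrocyte 1 and 2 in microglia 2, with common bases at 37.0% and 21.7% and at 21.6% and 13.3%. Slc1a3, the second glial glutamate transporter, had 5 and 3 sites and Hepacam, an adhesion protein of endfeet, 4 and 2. The exception was Glul, glutamine synthetase, with 3 sites in astrocyte 1, 2 in microglia 2 and 2 in astrocyte 2. Gfap, Sox9, Slc25a18 and Fjx1 had no site in any library.

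Of 15 genes for uptake of glutamate and GABA, 12 had a site. In both libraries of side 1 and neither of side 2 were 11 of these (91.7%), Slc1a2 of the rule among them. Over all listed genes this share was 15.7%. Slc6a11, the GABA transporter GAT3, had 2 and 4 sites, and the amino acid carriers Slc38a1 and Slc38a3 had 1 and 3 and 1 and 2. Of 16 genes of endfoot channels, pumps and junctions, 15 had a site and 13 (86.7%) were listed in the same way, including Aqp4 and Slc4a4 of the rule. Kcnj10, the potassium channel Kir4.1, had 7 sites in astrocyte 1 and 4 in microglia 2, with a common base at 29.6% and 30.8%. Dtna, a component of the dystrophin complex, had 5 and 3, and Slc12a2, a sodium-potassium-chloride cotransporter, 5 and 2.

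Developmental receptors were split less sharply. Of 34 genes of Notch, Fgf, hedgehog, Wnt and Bmp signalling, 27 had a site. Of these 13 (48.1%), with Fgfr3 of the rule, were in both libraries of side 1 and neither of side 2, 0 in the reverse, and 5 (18.5%) were listed on each side. Ptch1, the hedgehog receptor, had 6 sites in astrocyte 1 and 2 in microglia 2, with a common base at 50% and 90%. Fgfr2 had 4 and 2, and the Wnt receptor Fzd2 had 1 and 4. Notch2 departed from the list, with 6 sites in astrocyte 1, 4 in microglia 2, 9 in astrocyte 2 and 0 in microglia 1. Of 23 genes of cholesterol and fatty acid metabolism 19 had a site, 5 (26.3%) in both libraries of side 1 alone and 6 (31.6%) on each side. Over all listed genes these shares were 15.7% and 21.4%. Srebf2, the master regulator of cholesterol synthesis, had 4 and 3 sites with a common base at 40% and 44%. Lrp1, a lipoprotein receptor, was listed in every library, with 7 sites in astrocyte 1, 4 in microglia 2, 7 in astrocyte 2 and 2 in microglia 1.

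Microglia functions gathered on side 2. Of 35 further microglia markers, 26 were listed in astrocyte 2, 21 in microglia 1, 4 in astrocyte 1 and 2 in microglia 2. Both libraries of side 2 and neither of side 1 listed 13 of the 32 with a site in any library (40.6%), against 1.88% of all listed genes. Inpp5d, a phosphatase of immune receptor signalling, had 5 sites in astrocyte 2 and 2 in microglia 1. Slco2b1, an organic anion transporter, had 2 and 3, and the receptor Gpr34 had 3 and 1. Mertk, a phagocytic receptor that astrocytes also make, went the other way, with 5 sites in astrocyte 1, 1 in microglia 2 and 0 on side 2. Sall1, Mef2c and Tgfbr1 were listed on side 2 and also on side 1, where Sall1 and Mef2c had 1 site each in astrocyte 1 and Tgfbr1 had 1 in microglia 2. Trem2, Tyrobp and Ltc4s had no site in any library.

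Of 38 genes of cytokine and innate signalling, 18 were listed on side 2 and not on side 1, 1 (Jak2) on side 1 and not on side 2, and 3 on each side. Of the 22 with a site, 7 (31.8%) were in both libraries of side 2 and neither of side 1, with Csf1r of the rule. Over all listed genes this share was 1.88%. The 3 on each side (13.6%) stood against 21.4% of all listed genes. Il10ra, the interleukin-10 receptor, carried 2 sites in astrocyte 2 against 5 in microglia 1, and Tgfb1 had 2 and 3. The sites of Tgfb1 ran from 80% to 100% in astrocyte 2 and from 60% to 66.7% in microglia 1, so they did not overlap between the libraries of the same side, though at different bases. Tlr7 and Tlr9, receptors for nucleic acids, had 2 and 1 and 1 and 1 sites. The median level of the list was 62.5% in astrocyte 2 and 61.3% in microglia 1, against 38.5% and 44.4% for the microglia markers.

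Of 18 purine and chemokine receptors and ectonucleotidases, 13 had a site and 6 (46.2%) were on side 2 alone in both libraries, and 3 of those 6 (Cx3cr1, P2ry12 and Entpd1) had chosen the side. Adora1, the adenosine A1 receptor, was on side 1 alone with 2 sites in each library. Of 24 lysosomal and phagocytic genes 19 had a site, and 8 of these (42.1%) were listed on each side, against 21.4% of all listed genes. In both libraries of side 1 alone were 3 (15.8%) and in both of side 2 alone 1 (5.26%), close to or a few points above the shares of 15.7% and 1.88% over all listed genes. Ctsb, a lysosomal protease, had 1 site in astrocyte 1, 2 in microglia 2, 3 in astrocyte 2 and 2 in microglia 1. Arsb, a lysosomal sulfatase, had 1, 1, 5 and 2 in the same order. Axl and Gaa, a phagocytic receptor and acid glucosidase, were on side 1 alone, with 1 and 4 sites and 1 and 3 sites. Chromatin regulators were the list most often on each side, with 15 of the 23 that had a site (65.2%), 2 (8.70%) in both libraries of side 1 alone and 0 in both of side 2 alone. Kmt2c and Ash1l, histone methyltransferases, were those 2.

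**Figure D3:**
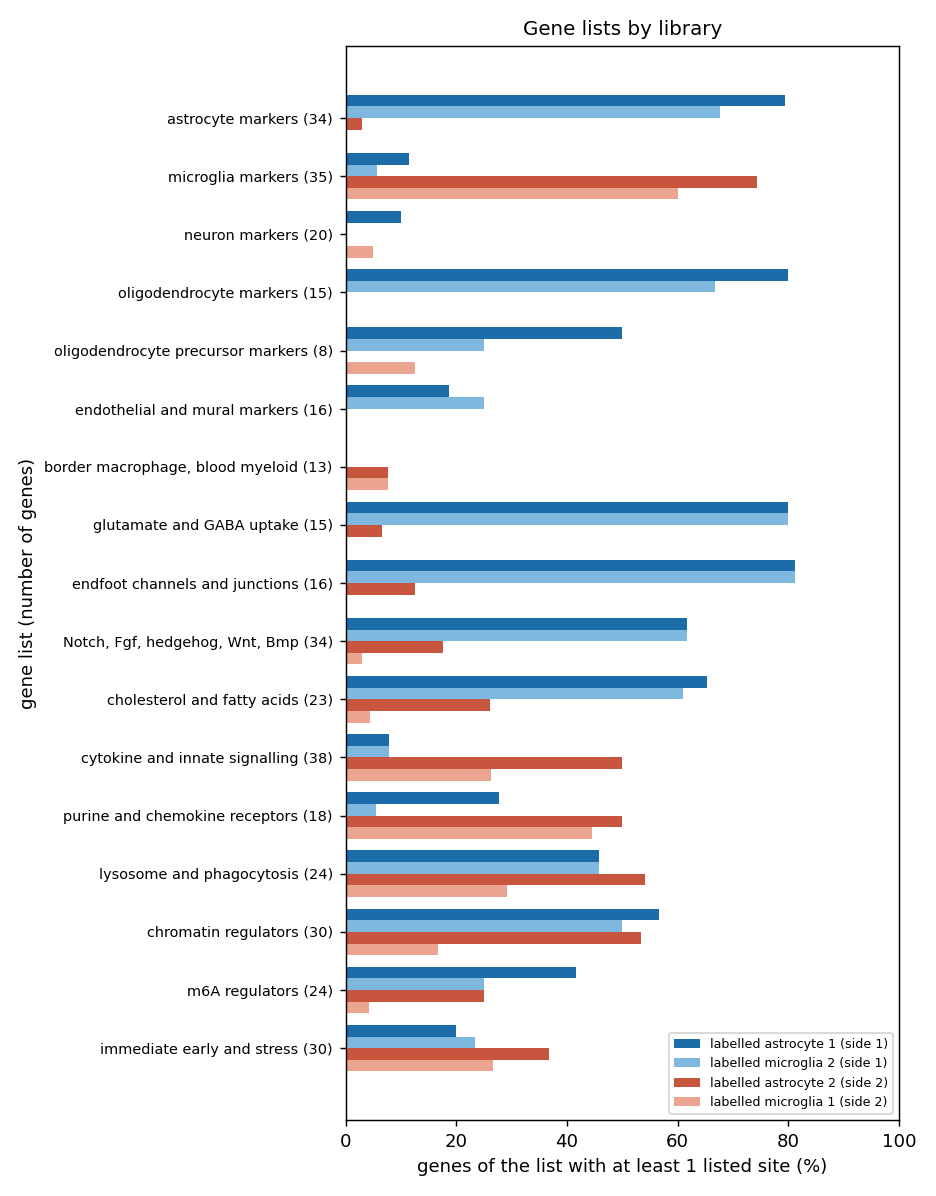
Percent of the genes of each list (number of genes in brackets) with at least 1 listed site, as 1 bar per library; the markers that chose the sides are left out of the marker lists. Astrocyte markers were listed for 27 and 23 of 34 genes on side 1 and 1 and 0 on side 2, microglia markers for 4 and 2 of 35 on side 1 and 26 and 21 on side 2.

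Among markers of other cells, those of oligodendrocytes moved with the sides. They were listed for 12 of 15 genes in astrocyte 1, 10 in microglia 2 and 0 in either library of side 2. Of the 14 with a site, 8 (57.1%) were in both libraries of side 1 alone, against 15.7% of all listed genes. Sites of the whole list numbered 21 and 24, with Cnp at 3 and 4, Mal at 3 and 4 and Mbp at 1 and 4. Of 8 markers of oligodendrocyte precursors, 4 and 2 were listed on side 1, led by Ptprz1, which astrocytes also express, with 11 and 3 sites. On side 2, 0 and 1 were listed. Of the 5 precursor markers with a site, 2 (40%) were in both libraries of side 1 alone, also against 15.7%. Of 16 endothelial and mural genes, 4 had a site in any library. The pericyte genes Pdgfrb, Abcc9 and Vtn were listed in both libraries of side 1 and neither of side 2. These pericyte genes made up 75% of those 4, against 15.7% of all listed genes. Rgs5 had 2 sites in microglia 2 alone, and the mural genes Kcnj8 and Acta2 had no site. Cldn5, Pecam1 and Cdh5, which define endothelium, also had no site in any library. Of 13 markers of border macrophages and blood myeloid cells, 12, Mrc1 and Ccr2 among them, had no site, and Stab1 was listed on side 2, at 3 sites by astrocyte 2 and at 1 by microglia 1. Neuron markers were listed for 2 of 20 genes in astrocyte 1, 1 in microglia 1 and 0 in the others, and Rbfox3 and Snap25 had no site. The part of oligodendrocyte RNA in the genes of side 1 was not tested.

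Xist, the RNA that silences an X chromosome in female cells, also moved with the sides and was singled out after its values were seen. Astrocyte 1 listed 11 of its sites and microglia 2 listed 5, whereas each library of side 2 listed 0. Its common base, at position 102526538 of the X chromosome (minus strand, GAC), stood at 85.2% and 86.7%. The antisense gene Tsix had 1 site, at 100%, in every library. Of the Y-linked genes Eif2s3y had 1 site in astrocyte 1 at 50%, and Ddx3y, Uty and Kdm5d had none in any library. The labels give no sex, and the part of sex in the differences between the sides was not tested.

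Many genes were listed on each side, often at other bases. A total of 1180 genes (21.4% of those listed) had a site in at least 1 library of each side, and 576 of them (48.8%) had a base listed on both sides. Among the 131 genes listed in all 4 libraries, Kmt2d, a histone methyltransferase, and Ddx17, an RNA helicase, had the most bases common to side 1 and absent from side 2, with 3 each. Kmt2d had 11 sites in astrocyte 1, 9 in microglia 2, 8 in astrocyte 2 and 2 in microglia 1. The 3 bases stood at 64.7%, 100% and 86.7% in astrocyte 1 and at 50%, 66.7% and 71.4% in microglia 2, lower in the latter each time. Kmt2d also had 2 bases common to astrocyte 2 and microglia 2 and 1 common to the libraries labelled astrocyte, which cross the sides.

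Ddx17 had 9, 11, 4 and 1 sites in astrocyte 1, microglia 2, astrocyte 2 and microglia 1. Beside its 3 bases of side 1, another, at position 79416333 of chromosome 15 (minus strand, AAC), was listed at 22.7% in astrocyte 1, 25.6% in microglia 2 and 43.2% in astrocyte 2. There the level was higher on side 2 than in either library of side 1. Ttyh3, a chloride channel family member, had 2 such bases among 8, 6, 1 and 2 sites. Pkd1, Snn and Sgk1 had 1 each. In Sgk1, a stress-responsive kinase, the base stood at 61.1% in astrocyte 1 and 19.2% in microglia 2. Extl3, a glycosyltransferase of heparan sulfate synthesis, was the 1 gene in all 4 libraries with a base common to side 2 and absent from side 1. That base stood at 50% in astrocyte 2 and 62.5% in microglia 1, at position 65313368 of chromosome 14 (minus strand, AAC).

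Levels were compared at the bases that the sides have in common. A total of 603 sites in named genes were listed on both sides, and 83 of them in all 4 libraries. Without astrocyte 1, astrocyte 2 or microglia 1, the 603 sites became 376, 389 or 338. Below 100% in every library that listed them were 187 sites. With a side's level taken as the mean over its libraries that list the site, side 1 was lower at 115 of these, higher at 68 and equal at 4. The median of side 1 minus side 2 was -2.5 points, with quartiles of -13.9 and 6.91. Side 2 was higher by over 20 points at 32 sites and side 1 at 21.

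Spread between libraries was also measured for each pair of libraries. At common sites below 100% in both libraries, the median absolute difference was 11.4 points between the libraries of side 1 (368 sites) and 7.16 between those of side 2 (67 sites). Over the 4 pairs that cross the sides it ran from 7.14 to 10.9 points. Differences over 20 points made up 28.8% within side 1, 16.4% within side 2 and 16.9% to 26.1% across. The largest values of both measures were those within side 1, and those within side 2 were near or below the lowest across. Each pair has its own set of common sites. Of the 618 sites common to the libraries of side 1, 384 were listed in neither library of side 2. Within and across the sides, spread was thus not compared at the same sites. Whether levels set the sides apart beyond this spread was not tested.

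Of the 83 sites in all 4 libraries, 34 stood at 100% in each. Both levels of side 2 lay above both of side 1 at 8 sites (9.64%), and the reverse held at 1 site (1.2%). By label, both astrocyte levels lay above both microglia levels at 5 sites (6.02%) and the reverse held at 3 (3.61%). The total of 9 sites by side is thus close to the 8 by label. With a library left out, fewer levels must clear each other, and the total was 32 when either library of side 1 was omitted, 46 when astrocyte 2 was and 41 when microglia 1 was.

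The widest gap was in Plbd2, a lysosomal phospholipase-like protein, at position 120624759 of chromosome 5 (minus strand, GAC). It stood at 56.5% in astrocyte 1, 57.1% in microglia 2, 100% in astrocyte 2 and 88.5% in microglia 1, a gap of 31.3 points between the sides. In LOC115490046, at position 117012409 of chromosome 4 (minus strand), the levels were 29.9%, 31.8%, 49.1% and 59.7% in the same order. In Malat1, an abundant nuclear long non-coding RNA, the base at position 5846790 of chromosome 19 (minus strand, GAC) stood at 14.3%, 12.3%, 29.7% and 25%. The gaps of 31.3, 17.3 and 10.7 points were larger than the difference between the libraries of either side at the same base, though these 3 bases were chosen for their gaps.

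A second base of Malat1, at 5848296, overlapped between the sides, with 17.8%, 17.7%, 14.4% and 20%. Tgoln1, a protein of the trans-Golgi network, had a base at 82.4%, 89.5%, 100% and 97.5%. Gm22126 and Rab36 were separated by 1.44 and 1.32 points, and the remaining 2 sites, in Gm26165 and Snord2, by 1.04 and 0.817 points. Msn, the membrane-cytoskeleton linker moesin, gave the reverse case at position 95211969 of the X chromosome (plus strand, AAC), with 100%, 81.8%, 55% and 62.5%. Msn is X-linked, and Xist sites were listed on the side where its level was higher. Both were picked by their values, and a link between them was not tested.

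**Figure D4:**
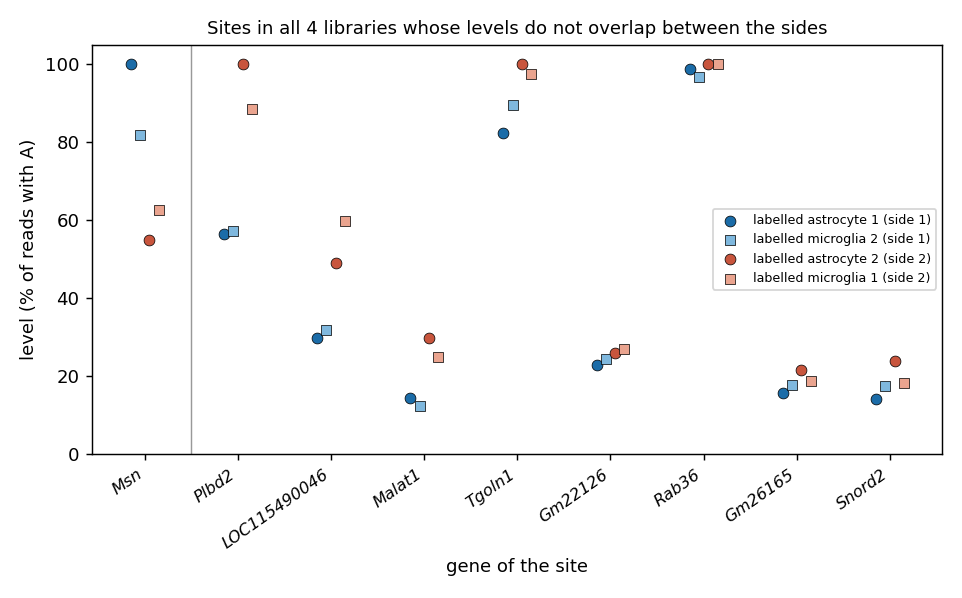
Level (percent of reads with A) in each of the 4 libraries at the 9 sites, named by gene, that are listed in all 4 and whose levels do not overlap between the sides; circles are libraries labelled astrocyte and squares libraries labelled microglia, blue for side 1 and red for side 2. Msn, left of the line, is higher on side 1, and the other 8 are higher on side 2, with gaps from 0.817 to 31.3 points.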

How the data were processed

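Per the labels' protocols, total RNA of sorted cells was treated by GLORI and made into stranded total RNA libraries. GLORI-tools made the site calls, per the series' design text. The submitters' processing notes name STAR and the build mm39. For calling thresholds, the sources used here gave no value. Each deposited table holds 1 library, with a fraction per site (given here as a percent), no coverage and no counts, so no level has a counting interval. Per the deposited tables, no level was under 10% (3 libraries) or 10.05% (1 library).

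Rows with a gene name were kept and matched by chromosome, end position (1-based) and strand. Counts were made in Python 3.11.15 with pandas 2.3.3, and the counting code was tested on simulated data. No genome of mm39 was used, so exon, intron or UTR positions were not determined. Of 5526 gene names, 5452 matched a RefSeq symbol (GRCm38.p6 table, used for names and biotypes).

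Named were the 8 markers and both sort genes. For each side, the 12 genes with most common bases were named, and up to 4 members of each list, 6 genes of those in all 4 libraries and 6 sites per direction without overlap. Genes with no RefSeq symbol and Gm or Rik models were passed over where genes were ranked. Some genes that the rule names are not reported here. Further list members are given as exceptions or examples, after their values were seen. The sides, the gene lists and this rule were chosen with earlier results of these data known.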

Additional observations from a re-analysis of the deposited data

How the results depend on the processing

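No paired analysis was possible because the results come from no test, but each side holds 1 library of each replicate number and counts within each number are given below. Depth is unknown, so an unlisted site can be unmethylated, below a threshold or unread. The 4 counts of genes and sites of 1 side alone stayed within 1.5 times under a minimum level of 20%, only levels below 100%, only the 3-mer GAC, and without Gm and Rik models. Requiring 2 sites in each library left 204 genes for side 1 and 20 for side 2. With sites outside named genes included, sites of 1 side alone numbered 804 and 184, sites on both sides 4390 and sites without overlap in level 71. With only sites below 100% in every listing library, the last 2 were 187 and 5. Leaving out 1 library at a time asks for fewer libraries by construction. Genes of side 1 alone then ranged from 985 to 2213 and of side 2 alone from 133 to 835. Sites ranged from 443 to 4329 and from 57 to 2010, sites on both sides from 338 to 461, and sites without overlap from 32 to 46. In the replicate 1 libraries alone, a check chosen after seeing the data, genes numbered 2709 and 497 and sites 4457 and 733. In the replicate 2 libraries alone they were 2015 and 1122, and 3540 and 2106. For genes, side 1 had the larger count in every setting named here. For sites, side 2 had the larger count without astrocyte 2 (443 on side 1 and 677 on side 2) and without microglia 1 (476 and 2010), and side 1 in the other settings.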

Other observations

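Of 30 immediate early and stress genes 15 had a site in any library, and 7 of these (46.7%) were listed on each side, against 21.4% of all listed genes. Rhob, a small GTPase, had 3 sites in astrocyte 2 and 1 in microglia 1, Zfp36, an RNA-binding protein that promotes decay of cytokine transcripts, had 2 and 2, and Klf4, a transcription factor, had 1 base common to both at 100%. These 3 had no site on side 1 and made up 20% of the 15, against 1.88% of all listed genes in both libraries of side 2 alone. Dusp1, a phosphatase of MAP kinases, had 1 site in each library of side 1, at 80% in astrocyte 1 and 50% in microglia 2, and none on side 2. It was the 1 gene of the 15 (6.67%) in both libraries of side 1 alone, against 15.7% of all listed genes.

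Of 24 writers, erasers and readers of m6A, side 1 listed 10 in astrocyte 1 and 6 in microglia 2. Side 2 listed 6 in astrocyte 2 and 1 in microglia 1. Of all listed genes these libraries held 57.0%, 47.2%, 31.1% and 17.0%, in the same order. Among the 14 regulators with a site, 6 (42.9%) were on each side, against 21.4% of all listed genes. Ythdf1, a cytoplasmic reader, had 1 site in each library of side 1, at 85.7% in astrocyte 1 and 44.4% in microglia 2, and Rbm15b, an adaptor of the methyltransferase, had 1 in each at 71.4% and 31.3%. Neither had a site on side 2. These 2 made up 14.3% of the 14, close to the 15.7% of all listed genes in both libraries of side 1 alone. Mettl3 and Mettl14, the methyltransferase core, had no site in any library.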
